A study of Mus musculus with 6 samples.

Results

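The vacuolar H+-ATPase (V-ATPase) and the genes that work with it in acid secretion were examined in monocytes of the femur and of the mandible. The members were selected by gene name, in a list chosen with earlier results of these data known. The list held every gene named as a V-ATPase subunit or as 1 of its 2 accessory proteins, plus Tcirg1, Clcn7, Ostm1, Car2, Snx10, Plekhm1 and Slc4a2. This gave 31 of the 57010 genes in the count table, of which 13 encode V1 subunits, 10 encode V0 subunits, 2 encode accessory proteins and 6 encode other parts of the acid secretion machinery. Of the 31 members, 26 had enough counts to be tested, among 18114 genes tested in all.

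The 6 libraries came from bone marrow monocytes of untreated C57BL/6 mice (C57BL/6J in the study's methods) aged 1 year, 3 from the femur (S13, S15 and S18) and 3 from the mandible (S16, S19 and S23). The marrow was flushed from the dissected bones, and monocytes were enriched with a magnetic kit and lysed without culture, so no library holds osteoclasts grown with M-CSF and RANKL. Mice of both sexes were used in the study, and the labels tie neither a sex nor an animal to a library. By the sex-linked genes given below, the only library with a female pattern was S23, from the mandible. The p-values below measure the spread between these libraries, which may be partly technical because the labels give no animal. In the mandible this spread also holds the difference in sex pattern, so its libraries did not all come from the same animal. The comparison asks whether monocytes of the 2 skeletal sites, which can become osteoclasts, differ in the transcripts of the acid-secreting machinery.

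The V-ATPase is a rotary proton pump of endosomes and lysosomes. Its cytosolic V1 part (subunits A to H) hydrolyzes ATP, and its membrane V0 part (subunits a, c, c″, d and e) carries protons. In an osteoclast, lysosomes fuse with the plasma membrane facing bone to form the ruffled border, where the pump acidifies the resorption lacuna. Carbonic anhydrase II, encoded by Car2, supplies the protons, and the chloride/proton exchanger Clcn7 with its partner Ostm1 carries the chloride that goes with them. The a3 subunit, encoded by Tcirg1, is the a subunit of the ruffled border, and the loss of Tcirg1, Clcn7, Ostm1, Car2, Snx10 or Plekhm1 is known to cause osteopetrosis. Monocytes also express most of this machinery for their lysosomes.

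The promoters of several members hold the motif TCACGTG, which contains the E-box CACGTG and is part of the CLEAR element bound by TFEB, TFE3 and MITF, the MiT/TFE factors of lysosomal genes. The RefSeq promoters (GRCm38.p6, from 250 bases before to 50 bases after a start) covered 24 of the 31 members. TCACGTG on either strand was present in the promoters of 5 of these 24 genes (20.8%), compared to 4.29% of all 27025 genes with a promoter. The 8-base form TCACGTGA, which overlaps it, was present in 4 of 24 (16.7%), compared to 1.12% of all genes. A match describes the letters only, and factor binding was not measured. The 5 windows are shown because they cover pump subunits of both parts and the chloride exchanger, with the motif in capitals and each strand read 5′ to 3′.

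Atp6v1a, catalytic subunit A, chr16:44139362-44139413, minus strand: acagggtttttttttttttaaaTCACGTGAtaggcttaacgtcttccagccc

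Atp6v0b, subunit c″ of the proton ring, chr4:117887320-117887388, minus strand: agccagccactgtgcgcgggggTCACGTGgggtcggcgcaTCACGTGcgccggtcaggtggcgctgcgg

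Atp6v0d1, subunit d1 under the ring, chr8:105566039-105566090, minus strand: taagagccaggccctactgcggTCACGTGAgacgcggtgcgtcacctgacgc

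Atp6v0e, small membrane subunit e1, chr17:26676376-26676427, plus strand: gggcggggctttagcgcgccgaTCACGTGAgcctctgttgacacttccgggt

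Clcn7, the chloride/proton exchanger, chr17:25133353-25133426, plus strand: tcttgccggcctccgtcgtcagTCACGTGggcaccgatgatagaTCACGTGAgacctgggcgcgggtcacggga

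The windows of Atp6v0e and Atp6v1a lie wholly inside the genes as GENCODE M21 draws them (chr17:26663231-26699647 and chr16:44085402-44139705), downstream of the first start, and the other windows span the M21 start. The differences between the sites were not alike for the 5 genes. The log2 fold change of mandible over femur was -0.10 for Atp6v1a, -0.87 for Atp6v0b, -0.08 for Atp6v0d1, -0.53 for Atp6v0e and -0.09 for Clcn7, and none of the 5 passed the test described below.

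The libraries held 15718782 to 25371474 counts. Levels are given as counts per 1000000 after TMM scaling (CPM). A count of 0 allows up to 3 counts, or 0.133 to 0.172 CPM, and this limit covers counting error only. S15 stood apart, with a count for 40494 genes compared to 17481 to 23513 in the other libraries. S23 held Xist at 1441 CPM and no count of Ddx3y, Eif2s3y, Kdm5d or Uty, a female pattern. In the other 5 libraries Xist was at most 0.553 CPM. Each of these 5 held all of the Y-linked genes (Ddx3y at 46.4 to 75.1 CPM), a male pattern. Sex was thus not balanced between the sites, and its part in the values below was not tested. Monocyte markers summed to 10278 to 17430 CPM over the femur libraries and to 9323 to 16800 CPM over the mandible libraries. Lyz2 (mean 6899 CPM) and Fn1 (mean 3043 CPM) were the most abundant of the 10. Their log2 fold changes ran from -0.64 (Ly6c2) to 1.00 (Fn1), with 6 above 0 and 4 below. The sums are therefore not a measure of monocyte number. Other cells were present too. Markers of enamel and dental epithelium summed to 5841 to 11455 CPM over the mandible libraries, compared to 10.7 to 12.02 CPM over the femur libraries, and those of mesenchyme and osteoblasts to 9609 to 16192 CPM and 183 to 229 CPM. Neutrophil markers summed to 33891, 4029 and 24592 CPM in S13, S15 and S18. In S16, S19 and S23 they summed to 7247, 10703 and 4151 CPM. In S13 and S18 the sums were above those of the monocyte markers (11162 and 17430 CPM), but they do not measure cell number either. S100a9 alone was at 14150.5 CPM in S13. All 12 neutrophil markers had a log2 fold change below 0 (median -1.44), and 1 was called lower in the mandible. Macrophage markers were below 0 for 9 of 10 genes (median -2.01), with 1 called lower. Megakaryocyte markers were higher in the femur (667 to 1034 CPM) than in the mandible (83.3 to 124 CPM). Their part in the values below was not tested, except where a value is given. Osteoclast markers summed to 359 to 693 CPM over the femur libraries and to 337 to 448 CPM over the mandible libraries, with Itgb3, the integrin chain that platelets also carry, as the most abundant and the only one called (290.7 ± 57.0 CPM for the femur, 91.3 ± 17.4 CPM for the mandible). The other 6 of the 7 tested osteoclast markers had a log2 fold change above 0 and were not called. They were Ctsk (1.42, unadjusted p = 0.017, edgeR), Tnfrsf11a (0.72), Nfatc1 (0.52), Mmp9 (0.10), Acp5 (0.09) and Ocstamp (1.68, SE 2.19). Of these 6, only Nfatc1 had groups that did not overlap, and the median of the 7 was 0.52. The osteoclast-defining genes Calcr, Dcstamp and Oscar were each too low to be tested. These osteoclast markers were chosen for mention after their values were seen.

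Every subunit of the pump had at least 1 well-covered gene in the libraries of both sites. These libraries also held other cells, as given above, so the levels are not those of monocytes alone. In the femur, 23 of the 31 members had a mean level above 10 CPM, and over both sites the means of these 23 genes ran from 31.7 to 205 CPM. The plot of levels by library shows them as a band, with 8 lower genes that are mostly tissue-restricted isoforms.

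**Figure D1:**
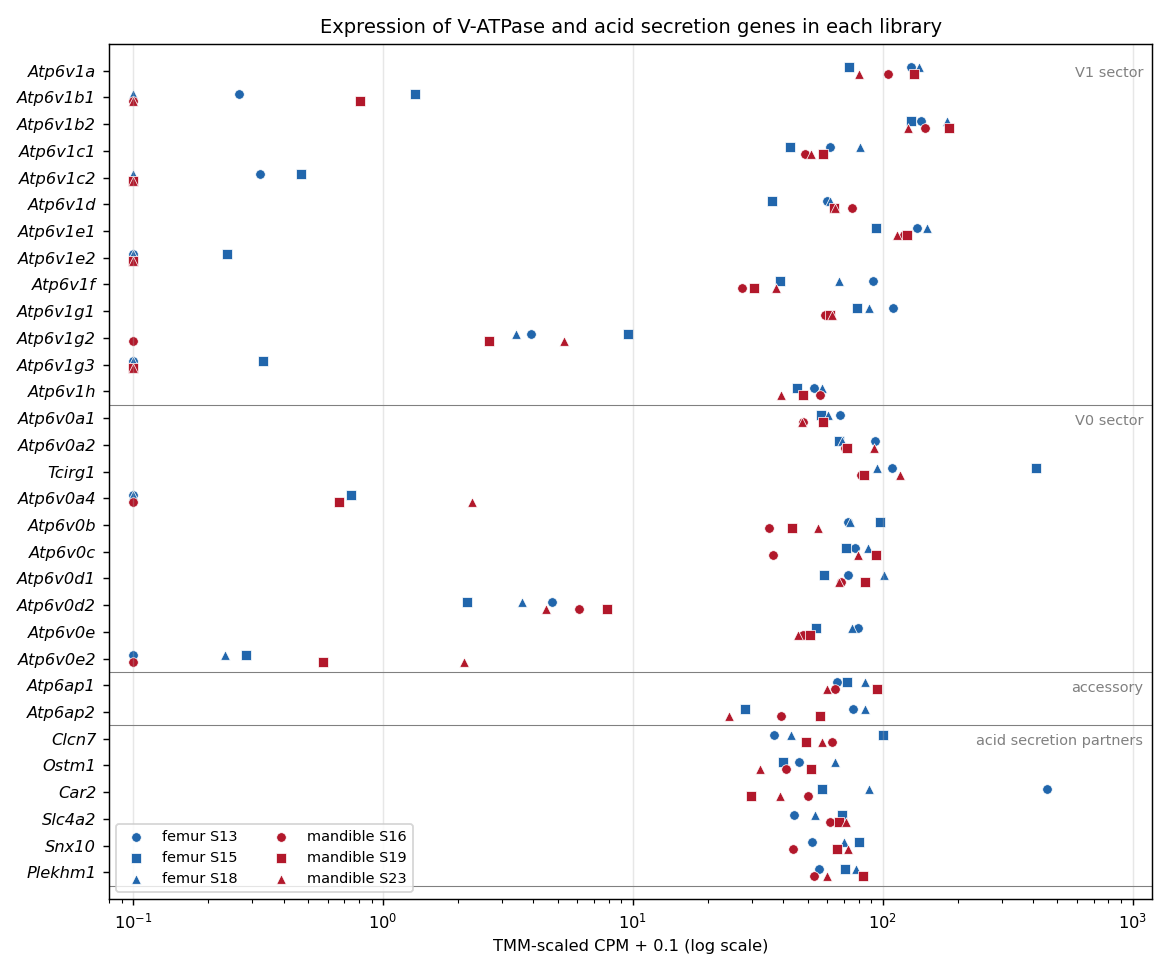
Level of each of the 31 members in each of the 6 libraries, as TMM-scaled CPM with 0.1 added, on a log axis, with femur libraries in blue and mandible libraries in red. Each point is 1 library. Car2 in S13 (452 CPM) and Tcirg1 in S15 (411 CPM) are the 2 highest points.

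No member was called different between the sites. A gene was called when edgeR's quasi-likelihood test gave a Benjamini-Hochberg adjusted p below 0.05 together with a 2-fold change or more. This held for 0 of 26 tested members, compared to 5.18% of all genes tested (3.88% higher and 1.3% lower in the mandible). An unadjusted p below 0.05 was found for 5 of 26 members (19.2%), compared to 16.4% of all genes, and these were Atp6v1f, Atp6v1g1, Atp6v0b, Tcirg1 and Car2, each lower in the mandible. DESeq2 called 1 member, Car2 (8.12% of all genes), and limma-voom called 0 (4.16% of all genes). Without S15, edgeR called 2 members, Atp6v1f and Car2 (8.35% of all genes). Leaving out another library gave 0 members, with 2.53% of all genes called without S13, 2.74% without S18, 3.78% without S16, 2.17% without S19 and 2.82% without S23. With every gene that had a count in the fit, edgeR called 3 members, Atp6v1f, Tcirg1 and Car2 (3.77% of all genes). In that fit the SE was 0.32 for Tcirg1 (0.50 in the main fit) and 0.33 for Car2 (0.65), although 1 library set each of these genes apart. The count of members called by edgeR was 0 with RLE size factors (4.96% of all genes), without normalization factors (4.37%), with a mean CPM of at least 1 (5.69%) and with the trend on gene length removed (4.42%). In bulk RNA, fewer cells of a type and less RNA per cell cannot be told apart.

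For 16 of the 26 members, the 95% interval of the difference lay within a 2-fold change in either direction (21.97% of all genes). This share is not matched for level, and intervals are wider at low counts (SE 2.23 for Atp6v0a4, with 0 to 38 counts per library). These 16 were Atp6v1a, Atp6v1b2, Atp6v1c1, Atp6v1d, Atp6v1e1, Atp6v1h, Atp6v0a1, Atp6v0a2, Atp6v0c, Atp6v0d1, Atp6ap1, Clcn7, Ostm1, Slc4a2, Snx10 and Plekhm1. The intervals are not adjusted for the number of genes. With the length trend removed, the count was 10 (19.3% of all genes). The intervals of Atp6v1a, Atp6v1c1, Atp6v1h, Atp6v0a1, Clcn7, Ostm1 and Snx10 then passed a 2-fold change, and that of Atp6v1g1 no longer did. Without S19 the count was 7 (10.9% of all genes). The log2 fold change was below 0 for 20 of 26 members, or 15 of 26 without normalization factors, compared to 52.2% and 46.4% of all genes. The median log2 fold change was -0.14 over the members and -0.04 over all genes. The libraries of the 2 sites did not overlap for 6 of 26 members (23.1%), compared to 24.2% of all genes. Of the 6, Atp6v1f, Atp6v1g1, Atp6v0b, Atp6v0e and Car2 were higher in all femur libraries and Atp6v1d was higher in all mandible libraries.

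**Figure D2:**
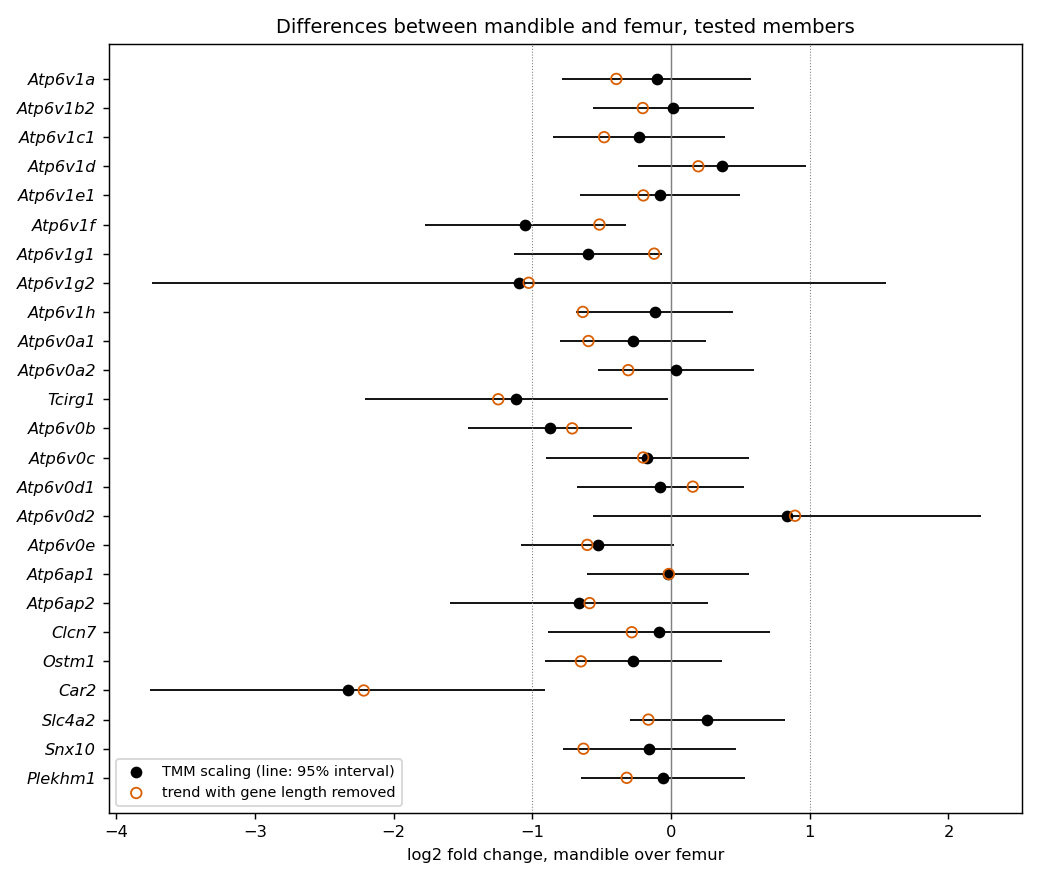
Log2 fold change of mandible over femur for 25 tested members, with filled points for TMM scaling, lines for the 95% interval of edgeR's quasi-likelihood fit, open points for the fit with the length trend removed and dotted lines at a 2-fold change. Atp6v0a4 is left out because its interval runs from -2.85 to 6.94. Car2 has the lowest value (-2.33), and 16 intervals lie between the dotted lines.

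The V1 part was represented by 8 genes at high levels, 1 for each of the subunits A to H. Their mean level in the femur was 114 ± 35.4 CPM for Atp6v1a (catalytic subunit A), 151 ± 26.2 for Atp6v1b2 (nucleotide-binding subunit B2), 61.7 ± 19.4 for Atp6v1c1 (C1) and 52.5 ± 14.3 for Atp6v1d (D, in the rotor). It was 127 ± 29.8 CPM for Atp6v1e1 (E1) and 92.3 ± 16.1 for Atp6v1g1 (G1), both of the peripheral stalks, 65.6 ± 26.5 for Atp6v1f (F, in the rotor) and 51.7 ± 6.13 for Atp6v1h (H, regulatory) (SD, n = 3). The median log2 fold change over the 9 tested V1 genes was -0.12, with 7 below 0.

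Atp6v1f (chr6:29467718-29470512) had the lowest unadjusted p of the V1 genes. Its level was 91.5, 38.6 and 66.8 CPM in the femur libraries S13, S15 and S18, and 27.2, 30.4 and 37.4 CPM in the mandible libraries S16, S19 and S23. All femur values were above all mandible values, with S15 closest to the mandible. The log2 fold change was -1.05 (SE 0.33, edgeR quasi-likelihood test, Benjamini-Hochberg adjusted p = 0.11), without S15 it was -1.36 (edgeR, Benjamini-Hochberg adjusted p = 0.0098), and without S13 it was -0.73 (edgeR, Benjamini-Hochberg adjusted p = 0.50). Atp6v1g1 was at 110.0, 78.6 and 88.3 CPM in the femur and at 58.6, 61.6 and 62.6 CPM in the mandible, where the libraries lay close together. Its log2 fold change was -0.60 (SE 0.24, edgeR quasi-likelihood test, Benjamini-Hochberg adjusted p = 0.23).

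The other rotor subunit went the other way. Atp6v1d was at 59.9, 36.0 and 61.6 CPM in the femur and at 75.4, 63.8 and 64.1 CPM in the mandible. The groups did not overlap, but the gap between S18 and S19 was small, and the log2 fold change was 0.37 (SE 0.27, edgeR quasi-likelihood test, Benjamini-Hochberg adjusted p = 0.61). The genes of the catalytic core had values close to 0. Atp6v1a had a log2 fold change of -0.10 (95% interval -0.79 to 0.58) and Atp6v1b2 of 0.02 (95% interval -0.57 to 0.60). Atp6v1e1 had a value of -0.08 and Atp6v1h a value of -0.12, both with intervals within a 2-fold change.

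The tissue-restricted V1 isoforms were near or at 0. Atp6v1b1, the B1 isoform of kidney and inner ear, had 3, 27 and 0 counts in the femur and 0, 15 and 0 in the mandible. Atp6v1c2 had 4, 8 and 0 counts in the femur and none in the mandible. Atp6v1e2, the testis isoform of E, and Atp6v1g3, the kidney isoform of G, had counts in S15 alone, with 3 and 5 counts. These 4 genes were not tested, and S15 held the most counts of each. Atp6v1g2, the neuronal isoform of G, was tested, with 69, 205 and 75 counts in the femur and 0, 54 and 91 in the mandible. The log2 fold change of -1.09 had an SE of 1.20.

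In the V0 part, Atp6v0b was lower in the mandible in all libraries, while the gene of the related proteolipid Atp6v0c overlapped. Atp6v0b, whose promoter with 2 motifs is shown above, was at 72.7, 97.3 and 73.9 CPM in the femur and at 34.9, 43.4 and 54.8 CPM in the mandible. Its log2 fold change was -0.87 (SE 0.27, edgeR quasi-likelihood test, Benjamini-Hochberg adjusted p = 0.1002). Atp6v0c, the c subunit that makes up most of the ring, was at 77.4, 71.4 and 87.3 CPM in the femur and at 36.4, 93.6 and 79.7 CPM in the mandible, where S16 was the low library. The log2 ratio of Atp6v0b to Atp6v0c counts differed by -0.61 between the sites (exact two-sided permutation test, p = 0.3, where the smallest p for 3 against 3 is 0.1). Atp6v0e was at 79.6, 54.2 and 75.1 CPM in the femur and at 47.9, 51.1 and 45.8 CPM in the mandible, with no overlap and a log2 fold change of -0.53 (SE 0.25, edgeR quasi-likelihood test, Benjamini-Hochberg adjusted p = 0.33). Atp6v0e2, its paralog, had 0, 4 and 3 counts in the femur and 0, 10 and 35 counts in the mandible and was not tested.

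Tcirg1 (chr19:3896050-3907133) was set apart by 1 library. Its level was 109.0, 411.3 and 94.8 CPM in the femur libraries S13, S15 and S18 and 82.1, 84.3 and 117.6 CPM in the mandible libraries S16, S19 and S23. S15 was 3.50 times the next highest library, and the other femur libraries lay within the mandible range. The log2 fold change was -1.12 (SE 0.50, edgeR quasi-likelihood test, Benjamini-Hochberg adjusted p = 0.29), and without S15 it was -0.15 (edgeR, Benjamini-Hochberg adjusted p = 0.84). Tcirg1 was the only tested member for which S15 was at least 2 times every other library, which was the case for 1.78% of all genes. Clcn7 was also highest in S15, at 1.59 times the next library.

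Among the 4 a subunits, Tcirg1 held the largest share of the transcripts in every library. Levels were divided by the exon length of each gene to compare genes. On this scale Tcirg1 made up 49.5%, 82.7% and 51.4% of the a subunits in the femur and 50.1%, 48.3% and 54.5% in the mandible. Atp6v0a2, the a2 isoform, made up 28.9%, 9.16% and 25.5% in the femur and 29.4%, 28.2% and 29.2% in the mandible. Atp6v0a1, the a1 isoform, made up 21.5%, 8.01% and 23.03% in the femur and 20.4%, 23.2% and 15.4% in the mandible. Outside S15 the shares of the 2 sites were close to each other. Neither the Atp6v0a1 to Tcirg1 ratio (difference 0.52 on the log2 scale, exact permutation p = 0.7) nor the Atp6v0a2 to Tcirg1 ratio (0.84, exact permutation p = 0.3) differed beyond the spread. Atp6v0a4, the a4 isoform of kidney and epididymis, had 0, 14 and 0 counts in the femur and 0, 12 and 38 in the mandible. It shares 259 exon bases with D630045J12Rik on the same strand, which had 8 to 77 counts per femur library and 630 to 1133 per mandible library, so its counts are uncertain.

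**Figure D3:**
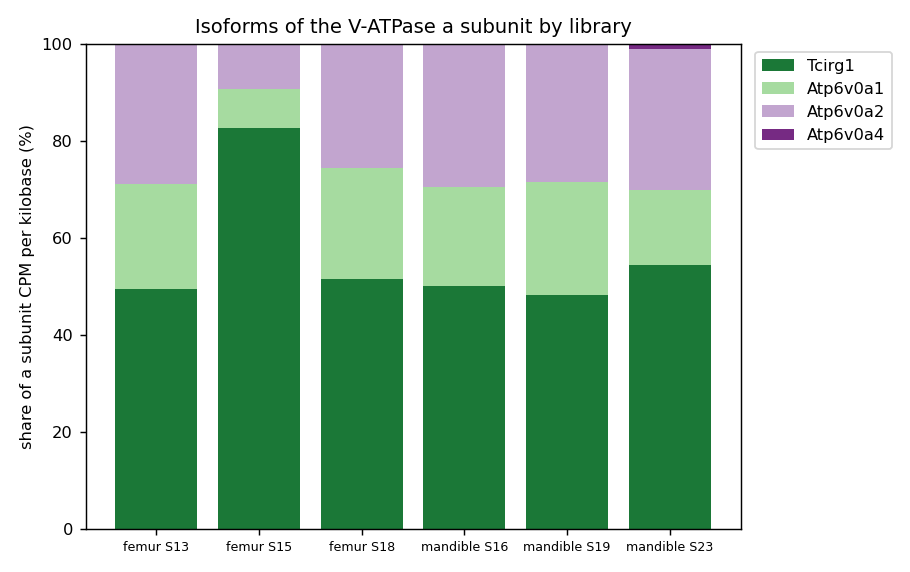
Share of each a subunit isoform in the summed level of the 4 isoforms, in percent, for each of the 6 libraries, from TMM-scaled CPM per kilobase of exon. Each stacked bar is 1 library and reaches 100%. Tcirg1 takes 82.7% in S15 and between 48.3% and 54.5% in the other 5 libraries.

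The d subunit was the only one whose isoform ratio did not overlap between the sites, and the gap was small. Atp6v0d2, the d2 isoform, rises during osteoclast differentiation and takes part in the fusion of precursors. It was at 4.64, 2.07 and 3.49 CPM in the femur and at 6.01, 7.79 and 4.404 CPM in the mandible. The lowest mandible library was below the highest femur library, and the log2 fold change was 0.83 (SE 0.64, edgeR quasi-likelihood test, Benjamini-Hochberg adjusted p = 0.62). Atp6v0d1, the d1 isoform of all cells, was at 77.3 ± 21.9 CPM for the femur libraries and 73.2 ± 10.1 CPM for those of the mandible (SD, n = 3). Per exon length, Atp6v0d2 made up 4.06%, 2.29% and 2.23% of the 2 isoforms in the femur and 5.52%, 5.71% and 4.16% in the mandible. The log2 ratio of Atp6v0d2 to Atp6v0d1 counts was -4.53 ± 0.50 for the femur and -3.62 ± 0.26 for the mandible (SD, n = 3). The closest libraries were S13 of the femur (-3.96) and S23 of the mandible (-3.92). Its difference of 0.92 had the smallest p this design allows (exact two-sided permutation test, p = 0.1). This was 1 of 12 ratios compared, which is near the share that chance alone gives at this p. No other ratio separated the groups.

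The accessory proteins Atp6ap1 (Ac45) and Atp6ap2 (the (pro)renin receptor), which help the pump to assemble, are both encoded on the X chromosome. Atp6ap1 was at 65.8, 72.1 and 84.6 CPM in the femur and at 64.1, 95.1 and 59.8 CPM in the mandible, with a log2 fold change of -0.02 (95% interval -0.61 to 0.56). Atp6ap2 was at 76.1, 27.9 and 85.0 CPM in the femur and at 39.1, 56.1 and 24.3 CPM in the mandible. S15 and S23 were its lowest libraries, the groups overlapped, and the log2 fold change was -0.66 (SE 0.42, edgeR quasi-likelihood test, Benjamini-Hochberg adjusted p = 0.52). S23 was also the library with Xist, and the part of this in the 2 genes was not tested.

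Of the acid secretion partners, Car2 (chr3:14886273-14900770) differed most, and S13 carried most of the difference. Car2 was at 452.4, 57.1 and 87.8 CPM in the femur libraries S13, S15 and S18 and at 50.1, 29.7 and 38.8 CPM in the mandible libraries S16, S19 and S23. All femur values were above all mandible values, with S13 at 5.15 times the next library. Of all genes, 1.6% had S13 at least 2 times every other library. The log2 fold change was -2.33 (SE 0.65, edgeR quasi-likelihood test, Benjamini-Hochberg adjusted p = 0.067). Without S13 it was -0.87 (edgeR, Benjamini-Hochberg adjusted p = 0.35), and without S15 it was -2.82 (edgeR, Benjamini-Hochberg adjusted p = 0.0069).

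Car2 is also abundant in red cell precursors, and erythroid markers moved with it across the libraries. The 12 erythroid markers summed to 2021, 328 and 415 CPM over the femur libraries and to 295, 176 and 208 CPM over the mandible libraries, and S13 was again the highest library. Of the 12, 4 were called lower in the mandible, all hemoglobin genes, and the median log2 fold change was -2.06. Slc4a1, the anion exchanger of red cells, was at 339, 44.5 and 42.0 CPM in the femur and at 62.4, 35.7 and 34.7 CPM in the mandible. Car1, the carbonic anhydrase of red cells, was at 55.8, 10.5 and 13.4 CPM in the femur and at 9.36, 4.80 and 3.20 CPM in the mandible. The part of erythroid RNA in the Car2 difference was not tested.

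**Figure D4:**
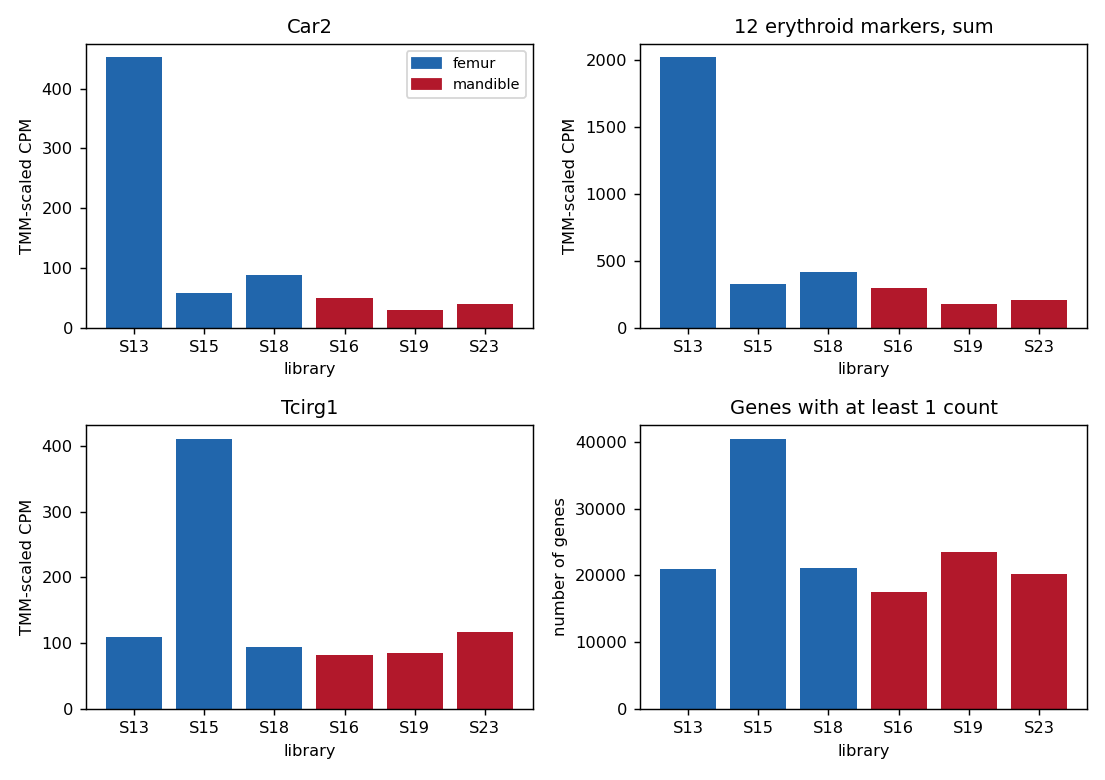
Bars for each of the 6 libraries (femur in blue, mandible in red): the levels of Car2 and Tcirg1 and the sum of the 12 erythroid markers in TMM-scaled CPM, and the number of genes with at least 1 count. Car2 (452 CPM) and the erythroid sum (2021 CPM) are highest in S13, and Tcirg1 (411 CPM) and the number of genes (40494) are highest in S15.

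The genes of chloride and bicarbonate transport did not pass the test, and their intervals lay within a 2-fold change. Clcn7 was at 36.6, 99.9 and 42.7 CPM in the femur and at 62.6, 49.3 and 56.9 CPM in the mandible, and S15 was again the highest library. Its log2 fold change was -0.09 (95% interval -0.89 to 0.71), and without S15 the direction turned to 0.46. Ostm1, the β subunit of Clcn7, had a log2 fold change of -0.27 (95% interval -0.91 to 0.37). The Ostm1 to Clcn7 ratio did not differ beyond its spread (-0.33 on the log2 scale, exact permutation p = 0.7). Slc4a2, the basolateral anion exchanger that removes bicarbonate, was at 43.9, 68.6 and 53.6 CPM in the femur and at 61.4, 66.8 and 71.1 CPM in the mandible, with a log2 fold change of 0.26 (95% interval -0.30 to 0.82). It shares 1141 exon bases with Fastk on the other strand, and the use of strand in counting is not given in the sources used here. Snx10 (log2 fold change -0.16) and Plekhm1 (-0.06), which serve endosome and lysosome trafficking to the ruffled border, had intervals within a 2-fold change.

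Per kilobase of exon, Atp6v1g1 was at 96.9, 69.3 and 77.8 CPM per kilobase in S13, S15 and S18. The femur mean of Car2 was as high (82.2 compared to 81.3), but it rested on S13, with 186.8, 23.6 and 36.3 CPM per kilobase in the same libraries. Atp6v1g1 and Atp6v0d1 were the highest in the mandible, at 53.7 and 40.8. The V1 sum divided by the V0 sum on this scale was 1.74, 0.843 and 1.497 in the femur and 1.57, 1.33 and 1.23 in the mandible. S15 was the only library below 1, and the sites overlapped.

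Shorter members tended to have lower fold changes, as did shorter genes at large. Across the 26 tested members the log2 fold change and the exon length had a Spearman correlation of 0.38 (Pearson 0.38), and across all genes of 0.27 (Pearson 0.22). Genes share libraries and are not independent, so no p is given. Over 10 equal groups of all genes by length, the median log2 fold change went from -0.65 in the shortest to 0.23 in the longest. Atp6v1f (1063 bases) and Atp6v1g1 (1135 bases) were the 2 shortest tested members. With the length trend of each library removed, Atp6v1f had a log2 fold change of -0.52 and Atp6v1g1 of -0.12, while Atp6v0b had -0.71 and Car2 -2.22. Long members fell with this correction. Atp6v1h went from -0.12 to -0.64, Snx10 from -0.16 to -0.63, Slc4a2 from 0.26 to -0.16 and Ostm1 from -0.27 to -0.65. The members' median was then -0.36 and that of all genes -0.13.

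**Figure D5:**
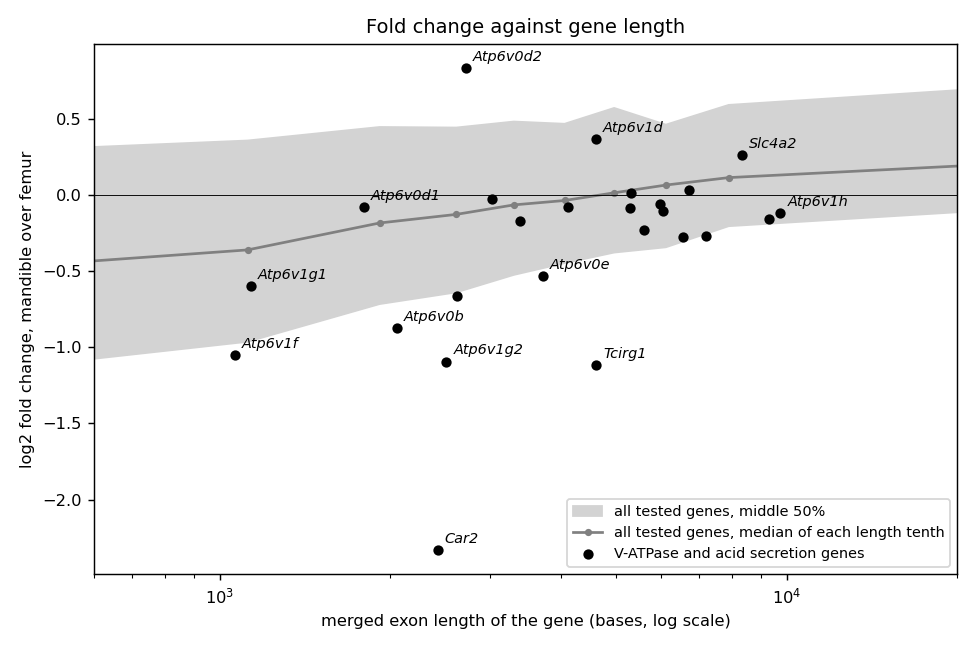
Log2 fold change of mandible over femur against exon length in bases (log axis) for 25 tested members, with the median of all genes in 10 equal groups by length as a grey line and their interquartile range as a grey band. Atp6v0a4 is left out, and the middles of the shortest and longest groups (medians -0.65 and 0.23) lie beyond the axis. The line rises with length, and Atp6v1f and Atp6v1g1, the 2 leftmost members, are both below 0.

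Other genes of the pathway were compared by lists made by function, each set beside the median log2 fold change of -0.04 over all genes. Of 15 genes of V-ATPase assembly and regulation, 14 were tested and none was called (median -0.31). The most abundant were Oxr1 (-0.09), Ncoa7 (0.12) and Dmxl1 (0.21), of which Dmxl1 belongs to a complex that assembles V1 on V0. Among the 14, 11 were below 0, compared to 52.2% of all genes. The 3 above 0 were Ncoa7, Dmxl1 and Wdr7 (0.22). Rogdi had the lowest value (-0.71, SE 0.30), and Dmxl2 was at -0.46 (SE 0.28). Of 12 other carbonic anhydrases, 8 were tested and 1 (12.5%) was called (median 1.87), compared to 5.18% of all genes called. The median lay between Car5b (1.86, SE 1.87) and Car13 (1.88, SE 0.86), both at low levels (means over all libraries of 1.30 and 2.65 CPM). Besides Car1, the most abundant were Car3 and Car12 (2.13, SE 1.23). The called gene, Car3, the carbonic anhydrase of muscle, rose in the mandible, with means of 0.685 ± 0.145 CPM for the femur and 9.07 ± 2.89 CPM for the mandible (SD, n = 3). Its log2 fold change was 3.71 (edgeR quasi-likelihood test, Benjamini-Hochberg adjusted p = 0.0085). Skeletal muscle markers summed to 6.36 to 40.9 CPM over the femur libraries and to 1343 to 4471 CPM over the mandible libraries, and their part in the Car3 difference was not tested. Of 8 other bicarbonate transporters, 5 were tested and none was called (median 0.13), including Slc4a1 (-1.68, SE 0.69), Slc4a7 (0.13) and Slc4a8 (0.10). The same held for the 4 other endolysosomal CLC exchangers (median -0.08), of which Clcn4 had a log2 fold change of 0.0023, Clcn3 of -0.38 and Clcn5 of 0.21.

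Of 17 genes of late endosome and ruffled border trafficking, 16 were tested and none was called (median 0.04). Rab7, the late endosome GTPase, had a log2 fold change of 0.04, Rab27a of -0.22 and Rab3d of -0.36. All 32 lysosomal proteins were tested, and 2 (6.25%) were called higher in the mandible (median 0.04), compared to 3.88% of all genes. Ctsl, the protease cathepsin L, rose in the mandible, with means of 27.97 ± 5.28 CPM for the femur and 74.7 ± 6.40 CPM for the mandible (SD, n = 3). This was a log2 fold change of 1.42 (edgeR quasi-likelihood test, Benjamini-Hochberg adjusted p = 0.0080). Gaa, the acid α-glucosidase, rose too, with means of 26.02 ± 2.97 CPM for the femur and 68.1 ± 18.8 CPM for the mandible (SD, n = 3). This was a log2 fold change of 1.39 (edgeR quasi-likelihood test, Benjamini-Hochberg adjusted p = 0.015). The number of lysosomal genes called was 0 without S13 (2.53% of all genes called) or without S19 (2.17%), and 1 without S18 (2.74%) or without S23 (2.82%). The most abundant lysosomal genes, Psap (0.46), Ctss (0.43) and Laptm5 (0.33), did not pass the test.

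The 10 genes of Ragulator and the Rag GTPases, which join the V-ATPase to mTORC1 on the lysosome, had a median of -0.45, and none was called. Of the 10, 8 were below 0, compared to 52.2% of all genes. The 2 above 0 were Rragd (2.13, SE 0.75) and Rragb (0.17, SE 1.03). Lamtor4 had a log2 fold change of -0.89 (SE 0.29, edgeR quasi-likelihood test, Benjamini-Hochberg adjusted p = 0.12), Lamtor1 of -0.53 and Rragc of -0.19. Lamtor5 (884 bases), Lamtor2 (1218 bases) and Lamtor4 (1302 bases) are short, and all genes of 788 to 1591 bases had a median of -0.36. The part of gene length in these values was not tested. None of the 4 MiT/TFE genes was called (median 0.13). Tfe3 had a log2 fold change of 0.15, Tfeb of 0.11 and Tfec, which is enriched in monocytes and macrophages, of -0.79 (SE 0.27, edgeR quasi-likelihood test, Benjamini-Hochberg adjusted p = 0.14).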

How the data were processed

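Raw counts of reads per gene were deposited by the authors for 6 libraries, without normalization. The submitters' processing notes name HISAT2 2.1.0, featureCounts and GRCm38, and the study's methods name trimming with Trimmomatic. The handling of strand and of reads with several positions is not given in the sources used here. The deposited exon length per gene was used for levels per kilobase. Positions in the table did not match GRCm38 (3031 of 52081 shared genes lay inside their GENCODE M21 gene), and the positions printed are those of M21, matched by Ensembl identifier.

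The main test on the counts was edgeR 4.0.16 (R 4.3.3), after filterByExpr (minimum count 10, minimum total 15) and TMM scaling, by a quasi-likelihood fit (prior count 0.125) with the femur as baseline. P-values were adjusted by Benjamini-Hochberg over all 18114 genes tested. Isoform ratios (0.5 added to each count) were compared by exact two-sided permutation tests in scipy 1.17.1. Alternatives were DESeq2 1.42.0, limma-voom 3.58.1, other scalings and filters, a loess length correction (span 0.4) and leaving out each library. The fits were tested on simulated data. Members and lists were chosen with earlier results of these data known. All members were named, with the 3 most abundant tested genes and each called gene of a pathway list.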

Additional observations from a re-analysis of the deposited data

How the results depend on the processing

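No paired analysis was possible because the labels tie no animal to a library. The number of all genes called was 938, and it was 1758 with DESeq2, 1590 with every gene that had a count, and 434 to 1565 when 1 library was left out. The number of members called was 0, and it was 1 with DESeq2, 3 with every gene that had a count, and 0 to 2 when 1 library was left out. The members' median log2 fold change of -0.14 was -0.36 with the length trend removed and -0.33 to -0.040 when 1 library was left out. The number of members whose groups did not overlap was 6, compared to 24.2% of all genes. In an alternative chosen after seeing the data it was 12 without S15 (41.1% of all genes). Over all libraries left out it was 6 to 12, compared to 29.3% to 41.1% of all genes. The number of members whose 95% interval lay within a 2-fold change was 16. In alternatives chosen after seeing the data it was 10 with the length trend removed (19.3% of all genes). It was 7 to 14 when 1 library was left out (10.9% to 18.5% of all genes), where fewer libraries widen the interval. Small log2 fold changes turned in sign. Without normalization factors, Atp6v1a was at 0.027, Atp6v1e1 at 0.049, Atp6v0d1 at 0.051, Atp6ap1 at 0.081 and Plekhm1 at 0.046. With DESeq2, Atp6ap1 was at 0.00061, and with limma-voom Clcn7 was at 0.049. With every gene that had a count, Atp6v1b2 was at -0.025 and Atp6v0a2 at -0.0097, and with a mean CPM of at least 1 they were at -0.030 and -0.0079. With the length trend removed, Atp6v1b2 was at -0.20, Atp6v0a2 at -0.31, Atp6v0d1 at 0.16 and Slc4a2 at -0.16. With 1 library left out, the log2 fold change ran from -0.39 to 0.069 for Atp6v1a, from -0.19 to 0.17 for Atp6v1b2, from -0.15 to 0.21 for Atp6v0a2, from -0.33 to 0.46 for Clcn7, from -0.48 to 0.026 for Atp6v1c1, from -0.30 to 0.064 for Atp6v1e1, from -0.29 to 0.17 for Atp6v0d1, from -0.31 to 0.091 for Atp6ap1, from -0.32 to 0.079 for Plekhm1, from -0.49 to 0.14 for Atp6v0c and from -0.36 to 0.036 for Snx10. The cause of these turns was not tested. Over the members and alternatives, 296 values kept their direction and side of the threshold, 35 turned in sign and 6 passed the threshold. With 3 libraries a site and the smallest exact p at 0.1, single ratios could not pass 0.05, and isoforms at a few counts had no usable fold change.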
